A study of Mus musculus with 24 samples.

Results

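The enzymes described here remove superoxide and peroxides: the glutathione peroxidases Gpx1, Gpx3 and Gpx4, the catalase Cat, and the superoxide dismutases Sod1, Sod2 and Sod3. They were measured on Affymetrix arrays of mouse brown and white fat cells in primary culture. Members were all probe sets annotated with only that gene symbol, which gave 8 probe sets for 7 genes out of 12488 probe sets in all. Catalase was the member with more than 1 probe set. All 8 passed the filter on dim probe sets, because each lay above the 40th percentile of its array on all 24 arrays. Brown cells were sampled at day 4 on 5 arrays and at day 7 on 5 arrays, and white cells at day 4 on 8 arrays and at day 7 on 6. The labels call the cells of day 4 non differentiated and those of day 7 differentiated, and all groups were grown in vitro with no other treatment named. No genotype, strain or age is named. Whether replicate arrays stand for different animals, cultures or only repeated hybridisations is not stated, so the p-values describe array-to-array spread that could be technical. All brown array numbers precede the white ones, so handling and cell type cannot be told apart.

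Superoxide dismutases turn superoxide, which leaks from the respiratory chain and is made by oxidases, into hydrogen peroxide and oxygen. Sod1 is the copper-zinc enzyme of the cytosol, Sod2 the manganese enzyme of the mitochondrial matrix, and Sod3 a secreted copper-zinc enzyme bound to the extracellular matrix. Hydrogen peroxide is then removed by catalase, a heme enzyme of peroxisomes, and by glutathione peroxidases, which use glutathione as the reductant. Gpx1 is the common cytosolic glutathione peroxidase, Gpx3 is the secreted form found in plasma, and Gpx4 reduces lipid peroxides within membranes. These glutathione peroxidases carry selenocysteine in the active site. Fat cells gain mitochondria and peroxisomes as they mature, brown more than white.

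In brown cells, transcripts of Gpx3, Cat (by its lead probe set, the one with the higher mean signal) and Sod3 were higher at day 7 than at day 4, by 2.64-fold, 2.03-fold and 1.95-fold. In white cells Cat rose by 2.09-fold by the same probe set, while Gpx3 and Sod3 did not pass the test. The other Cat probe set did not pass over time in either cell type, at 0.11 in brown and -0.38 in white cells on the log2 scale (adjusted p = 0.740 and 0.0564 by limma). Gpx3 was the member whose change differed between the cell types: it stood lower in brown than in white cells at day 4 and higher at day 7. Sod2 was higher in brown than in white cells at both days, and Sod1 at day 4. The day 7 call of Gpx3 and the day 4 call of Sod2 ended under 11 and 7 of 36 alternatives in processing and arrays. Gpx1 and Gpx4 passed in no comparison.

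In counts of probe sets, 3 of the 8 rose and 0 fell in brown cells between day 4 and day 7, where 12.1% of the 8397 probe sets tested changed (6% rose and 6.05% fell). In white cells 1 of the 8 rose and 0 fell, where 19% changed (8.36% rose and 10.6% fell). Brown against white at day 4 gave 2 higher and 1 lower, against 23% of all probe sets (10.8% higher and 12.2% lower). At day 7 it gave 3 higher and 0 lower, against 25.2% (12.8% higher and 12.3% lower). For the difference between the brown and the white change, 1 of the 8 passed, with a positive sign, against 0.214% of all probe sets (0.167% positive and 0.0476% negative). The median log2 difference of the 8 was 0.28 in brown cells over time, 0.04 in white cells over time, 0.12 between the cell types at day 4 and 0.32 at day 7. The medians over all probe sets were 0.01, 0.01, 0.01 and 0.00. Calls are adjusted p-values under 0.05 (limma, Benjamini-Hochberg over all probe sets tested, two-sided), and a value after ± is the fit's standard error in log2 units unless SD is written. Brown signals are listed in the order of arrays 5, 6, 9, 10 and 19 at day 4 and of arrays 7, 8, 11, 12 and 22 at day 7.

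**Figure D1:**
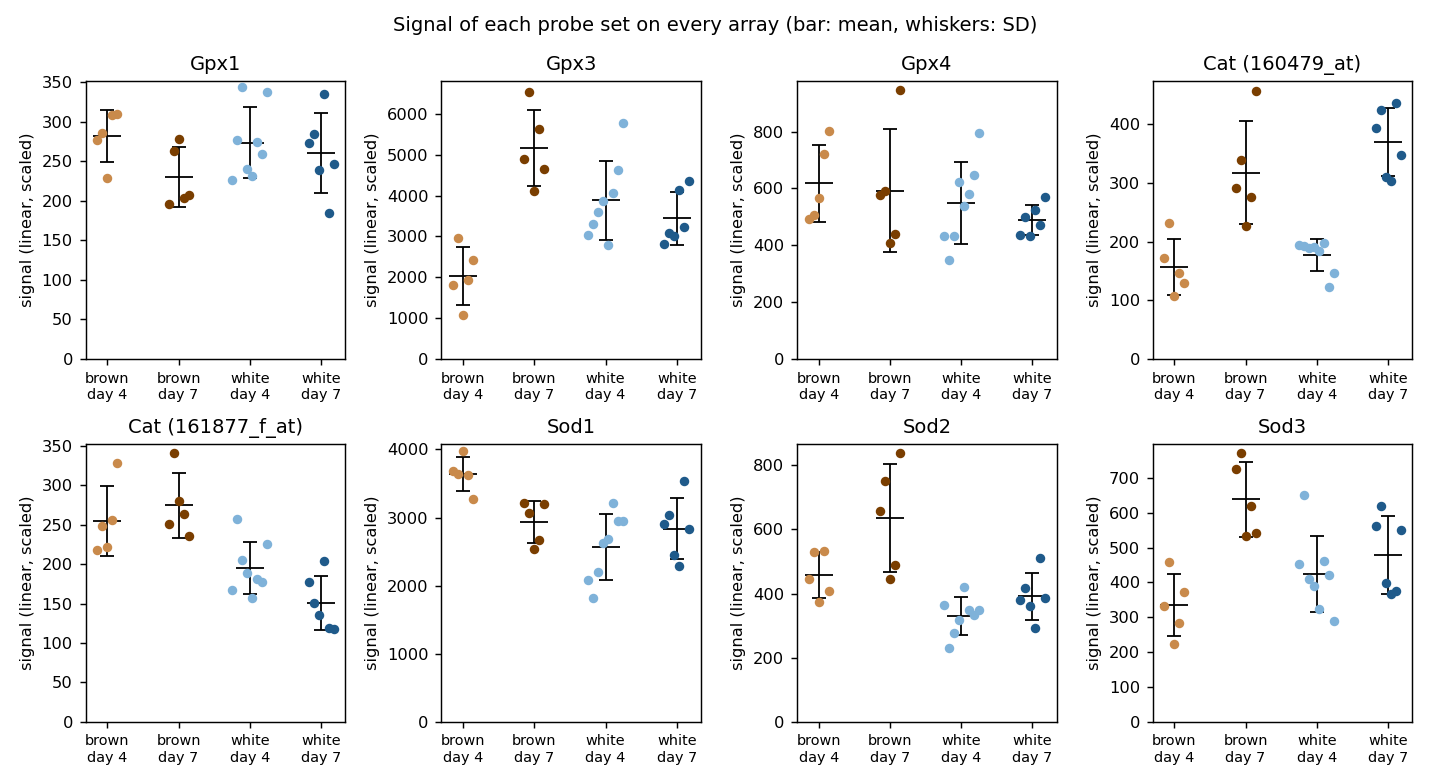
Signal of each of the 8 probe sets on all 24 arrays (y axis, linear signal after scaling, from 0), by group (x axis); points are arrays, the bar is the group mean and the whiskers its SD. All 5 brown day 7 arrays lie above all 5 brown day 4 arrays for Gpx3 and Sod3, and all 6 white day 7 arrays lie above all 8 white day 4 arrays for the lead catalase probe set.

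Some properties of the arrays touch these results. The ratio of 3' to 5' probe set signal for Gapdh, a measure that increases with RNA breakdown, was 1.36 ± 0.204 (SD, n = 6) at white day 7, against group means of 0.884 to 0.943 elsewhere. With this ratio added to the fit 0.441% of probe sets passed between days in white cells and 3.26% between cell types at day 7. The ratio was 1.09 to 1.54 at white day 7 and at most 1.10 elsewhere, so it nearly coincides with that group. A fit that holds both tells them apart poorly, and its standard errors for the members are wider in comparisons with white day 7. The cause of a call lost in that fit was not tested. Median signal per array was 41.9 to 59.0, and arrays carry no count depth, so that their number limits the precision. The share of probe sets called over time was 8% in brown cells without day 7 array 8 and 19.8% with array weights, and 12.5% in white cells without day 4 arrays 45 and 51. The summed signal of 6 adipocyte markers ran from 5238 to 9781 at brown day 4 and from 10850 to 12830 at brown day 7. In white cells it ran from 5072 to 8728 at day 4 and from 11450 to 14740 at day 7. The sum of 4 brown adipocyte markers was 163 to 1097 at brown day 4 and 1004 to 6968 at brown day 7, with overlap. At white day 4 and day 7 this sum was 112.5 to 211 and 318.5 to 787. The brown marker genes Cidea and Cox7a1 averaged 747 and 715 at brown day 7, and 10.8 and 50.5 at white day 7. The brown marker gene Cox8b rose over time in both cell types, from 325 to 2024 in brown and from 100 to 435 in white cells. Ucp1 was at or below the floor of 8.21 set in processing on 12 of the 24 arrays and did not pass the filter. The part of more mature adipocytes in any result was not tested. In RNA from whole cultures, fewer cells of a type and less RNA per cell cannot be told apart.

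The extracellular dismutase Sod3 rose in brown cells. Its signal on the brown day 4 arrays was 333, 459, 224, 283 and 372, and on the brown day 7 arrays 725, 771, 535, 619 and 543. Every day 7 array was above every day 4 array, and 9.72% of all probe sets did not overlap in this comparison, in either direction. The difference was 0.96 ± 0.20 (adjusted p = 0.00226 by limma), and leaving out single arrays gave 0.83 to 1.09. The summed signal of 4 markers of smooth muscle, which is known to make this enzyme, was 2420 to 3251 at brown day 4 and 3155 to 5468 at brown day 7, which overlap. Of these markers Myh11 rose by 2.34 and Tagln by 0.84 on the log2 scale in brown cells (adjusted p = 0.000697 and 0.00244 by limma). Acta2 and Cnn1 did not pass (adjusted p = 0.727 and 0.0587 by limma). In white cells the smooth muscle sum was 3690 to 7651 at day 4 and 5556 to 8394 at day 7. The summed signal of 9 macrophage markers was 434 to 527 at brown day 4 and 586 to 717 at brown day 7, without overlap. In white cells the macrophage sum was 565 to 1567 at day 4 and 806 to 1287 at day 7. Of these markers Itgam was at or below the floor of 8.21 set in processing on all 24 arrays. In brown cells Lyz2 was the tested macrophage marker that passed over time, at 2.21 (adjusted p = 0.00284 by limma). Cd14, with mean signals of 298 and 393, did not pass (adjusted p = 0.104 by limma). The part of either cell type in the result was not tested.

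In white cells Sod3 did not pass, at 0.18 ± 0.17 (95% interval -0.18 to 0.53, adjusted p = 0.511 by limma). The 8 day 4 arrays ran from 289 to 652 with a median of 415, and the 6 day 7 arrays from 368 to 619 with a median of 475. The groups overlapped over nearly their whole range. The brown change exceeded the white change by 0.78 ± 0.27, which did not pass (adjusted p = 0.304 by limma). Between the cell types Sod3 measured -0.35 ± 0.18 at day 4 and 0.43 ± 0.19 at day 7, brown minus white, and neither passed (adjusted p = 0.175 and 0.104 by limma). With array weights the day 7 difference was 0.42 and passed (adjusted p = 0.0455).

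The mitochondrial dismutase Sod2 was higher in brown than in white cells at both days. At day 7 the brown arrays read 656, 751, 444, 489 and 837, and the 6 white arrays 291 to 512 with a median of 382. The groups overlapped in that brown arrays 11 and 12 lay within the white range, and the other 3 lay above it. The difference was 0.68 ± 0.17, or 1.60-fold (adjusted p = 0.0043 by limma). With the Gapdh ratio added to the fit the estimate was 0.81 ± 0.30 and the call ended (adjusted p = 0.144).

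At day 4 the brown arrays read 446, 529, 372, 532 and 408 for Sod2, and the 8 white arrays 229 to 421 with a median of 341. Only brown arrays 9 and 19 lay within the white range. The difference was 0.48 ± 0.16, or 1.39-fold (adjusted p = 0.0318 by limma). This call ended without brown array 5, 6 or 10 or white array 34 or 37 (adjusted p = 0.0558, 0.0923, 0.0891, 0.0654 and 0.0597), with no filter (0.0516) and with runs of array numbers as a block (0.0518).

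Over time Sod2 measured 0.45 ± 0.18 in brown cells and 0.25 ± 0.15 in white cells, and neither passed (adjusted p = 0.108 and 0.277 by limma). Without brown day 7 array 11 the brown difference was 0.56 and passed (adjusted p = 0.0416). The 95% intervals were 0.08 to 0.81 and -0.07 to 0.56. The difference between the changes was 0.20 ± 0.23 (adjusted p = 0.903 by limma).

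The cytosolic dismutase Sod1 was higher in brown than in white cells at day 4. The brown arrays read 3685, 3641, 3977, 3623 and 3276, and the 8 white arrays ran from 1821 to 3210 with a median of 2657. All brown arrays lay above all white arrays, and 7.25% of all probe sets did not overlap in this comparison, in either direction. The difference was 0.53 ± 0.13, or 1.44-fold (adjusted p = 0.00327 by limma), and leaving out single arrays gave 0.46 to 0.58.

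At day 7 the brown arrays read 3210, 3069, 2532, 2667 and 3198 for Sod1, and the 6 white arrays 2287 to 3535 with a median of 2862. The groups overlapped, and the difference was 0.06 ± 0.13 (95% interval -0.22 to 0.33, adjusted p = 0.809 by limma). All 5 brown day 7 arrays lay below all 5 brown day 4 arrays, and 9.72% of all probe sets did not overlap in this comparison, in either direction. The difference of -0.31 ± 0.14 did not pass (adjusted p = 0.154 by limma). With array weights it was -0.36 and passed (adjusted p = 0.0303). In white cells the difference over time was 0.16 ± 0.12 (adjusted p = 0.395 by limma). The difference between the changes, -0.47 ± 0.18, did not pass (adjusted p = 0.434 by limma).

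**Figure D2:**
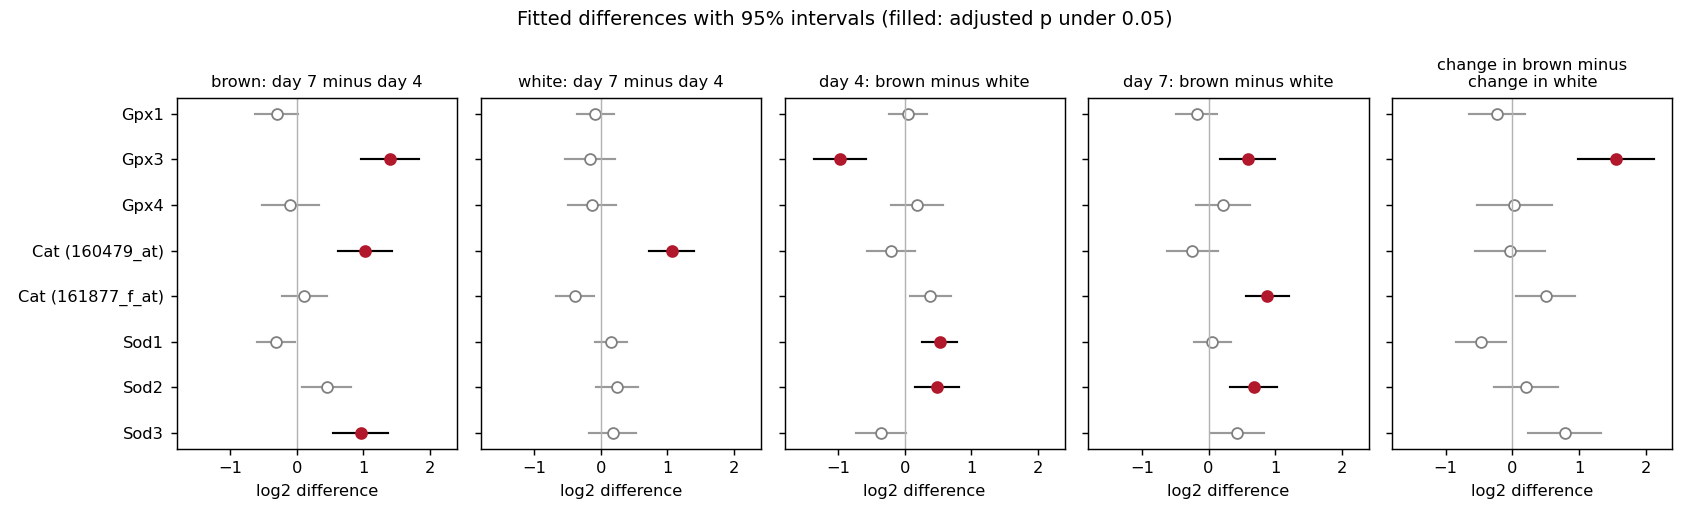
Fitted log2 differences (x axis) of the 8 probe sets (y axis) in the 5 comparisons, with 95% intervals; filled points have an adjusted p under 0.05. Gpx3 is filled in 4 of the 5 panels, the white day 7 against day 4 panel being the exception, and Gpx1 and Gpx4 in none.

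Catalase rose with days in culture in both cell types by its lead probe set. On the brown arrays the signal was 172, 231, 107, 147 and 129 at day 4 and 291, 338, 226, 276 and 456 at day 7. The groups overlapped only in that day 4 array 6 exceeded day 7 array 11. The brown difference was 1.02 ± 0.19 (adjusted p = 0.00102 by limma), and leaving out single arrays gave 0.88 to 1.18. In white cells the 8 day 4 arrays ran from 122 to 198 with a median of 189, and the 6 day 7 arrays from 304 to 437 with a median of 370. These did not overlap, as for 4.79% of all probe sets, and the difference was 1.06 ± 0.17 (adjusted p = 0.00015 by limma).

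The white rise of catalase stood on day 7 arrays with the higher Gapdh ratio. With that ratio added to the fit the rise was 0.82 and lost its call (adjusted p = 0.183). Its standard error was 0.28 there and 0.17 without the ratio. White day 4 arrays 45 and 51 held the lowest catalase signals of their group, 122 and 146, and the other 6 lay between 184 and 198. Without both arrays the difference was 0.93 and passed (adjusted p = 0.000969). The brown and white changes differed by -0.04 ± 0.25 (95% interval -0.56 to 0.48, adjusted p = 0.987 by limma). By this probe set catalase did not pass between the cell types, at -0.20 ± 0.17 at day 4 and -0.24 ± 0.19 at day 7 (adjusted p = 0.441 and 0.371 by limma).

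The other Cat probe set, whose name ends in _f_at, gave a different picture, and its suffix marks a design whose probes may be shared with similar sequences. Its signal on the brown arrays was 218, 249, 222, 256 and 328 at day 4 and 251, 341, 280, 264 and 236 at day 7. White arrays ran from 157 to 258 at day 4 with a median of 185, and from 117 to 204 at day 7 with a median of 143. Over time it measured 0.11 ± 0.17 in brown cells and -0.38 ± 0.14 in white cells (adjusted p = 0.740 and 0.0564 by limma). The white value passed under 8 of 36 alternatives, with adjusted p down to 0.0225 without white day 7 array 40. At day 7 it was higher in brown than in white cells by 0.88 ± 0.16 (adjusted p = 0.000181 by limma), with no overlap, as for 18.1% of all probe sets. That value was 0.87 ± 0.28 with the Gapdh ratio added to the fit, and its call ended there (adjusted p = 0.0865). At day 4 the difference was 0.39 ± 0.15 (adjusted p = 0.0622 by limma), and it passed without white day 4 array 34 or 51 or white day 7 array 40 (adjusted p = 0.0316, 0.0445 and 0.04996). Across the 24 arrays the log2 signals of the catalase probe sets correlated at r = -0.32, so the probe sets disagree and catalase levels rest on which is read.

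Gpx3, the secreted glutathione peroxidase, had the largest change over time of the 8 probe sets in brown cells. The brown day 4 arrays read 1818, 2962, 1067.5, 1925.5 and 2423, and the brown day 7 arrays 4895, 6528, 4114, 5636 and 4637. The groups did not overlap, as for 9.72% of all probe sets in this comparison. The difference was 1.40 ± 0.21 (adjusted p = 0.000138 by limma), and leaving out single arrays gave 1.19 to 1.55. In this comparison 1.92% of all probe sets had a larger size of change.

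In white cells Gpx3 did not pass over time, at -0.16 ± 0.18 (95% interval -0.53 to 0.22, adjusted p = 0.595 by limma). The 8 day 4 arrays ran from 2780 to 5771 with a median of 3734, and the 6 day 7 arrays from 2823 to 4367 with a median of 3151. The highest day 4 values, 5771 and 4635, came from arrays 51 and 45, and without both the difference was -0.01. The difference between the brown and the white change was 1.56 ± 0.28, or 2.94-fold (adjusted p = 0.00941 by limma). Leaving out single arrays gave 1.34 to 1.71, with adjusted p up to 0.0332. With the Gapdh ratio added to the fit the difference was 1.06 ± 0.35 and did not pass (adjusted p = 0.657).

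By group, Gpx3 mean signal increased from brown day 4 (2039 ± 708, SD, n = 5) through white day 7 (3442 ± 647, SD, n = 6) and white day 4 (3879 ± 966, SD, n = 8) to brown day 7 (5162 ± 940, SD, n = 5). The neighbours white day 7 and white day 4 did not differ beyond their spread. At day 4 brown was below white, at -0.97 ± 0.19 on the log2 scale, so that white was 1.96-fold higher (adjusted p = 0.000547 by limma), and brown array 6 was the array that reached into the white range. At day 7 brown was above white by 0.59 ± 0.20 (adjusted p = 0.0343 by limma). That day 7 call was weak: it ended without any 1 of brown arrays 7, 8 and 12 and white arrays 35, 36, 39 and 43 (adjusted p from 0.0547 to 0.101). It also ended with no filter, no intensity trend or the block of array runs (0.0697, 0.0516 and 0.0940). With the Gapdh ratio added to the fit the difference was 0.00 ± 0.33 (0.997).

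Gpx1, the cytosolic form, passed in no comparison. Its signal was 277, 286, 229, 308 and 310 on the brown day 4 arrays and 196, 263, 278, 203 and 208 on the brown day 7 arrays, which overlapped. The white arrays ran from 226 to 343 at day 4 (median 266) and from 185 to 334 at day 7 (median 260). The differences over time were -0.30 ± 0.16 in brown cells (95% interval -0.62 to 0.02) and -0.08 ± 0.13 in white cells (-0.35 to 0.20). Between the cell types they were 0.05 ± 0.14 at day 4 and -0.17 ± 0.15 at day 7. Adjusted p ran from 0.228 to 0.857 over the 5 comparisons (limma).

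Gpx4, which protects membrane lipids, did not pass either. The brown arrays read 493.25, 508, 567, 722 and 800 at day 4 and 579, 591, 408, 438 and 948 at day 7. White arrays ran from 347 to 796 at day 4 (median 559) and from 434 to 572 at day 7 (median 486). The groups overlapped in all comparisons. The differences over time were -0.10 ± 0.21 in brown cells (95% interval -0.53 to 0.33) and -0.13 ± 0.18 in white cells (-0.49 to 0.24). Between the cell types they were 0.19 ± 0.19 at day 4 and 0.22 ± 0.20 at day 7, with adjusted p from 0.472 to 0.989 over the 5 comparisons (limma).

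Apart from white day 4 arrays 45 and 51, the array numbers fall into runs that hold both days of a cell type, although the labels do not say what a number stands for. The brown run of arrays 19 and 22 holds 1 array a day. Within each of the 3 brown runs, all day 7 arrays were above all day 4 arrays for Gpx3, Cat (lead probe set) and Sod3. For Gpx3 and Sod3 this follows from the whole groups not overlapping, so it is no further support. The share of all probe sets that separate in every run was not computed. The Gpx3 differences by run were 1.28, 1.75 and 0.94, those of Cat 0.65, 0.99 and 1.82, and those of Sod3 0.94, 1.19 and 0.55. The rise was largest in arrays 9 to 12 for Gpx3 and Sod3, and in arrays 19 and 22 for Cat. In the 3 white runs Cat was higher at day 7 by 1.08, 0.69 and 1.03, and Gpx3 measured -0.10, -0.08 and 0.16. The white Cat arrays did not overlap within runs, which again follows from the whole groups not overlapping.

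**Figure D3:**
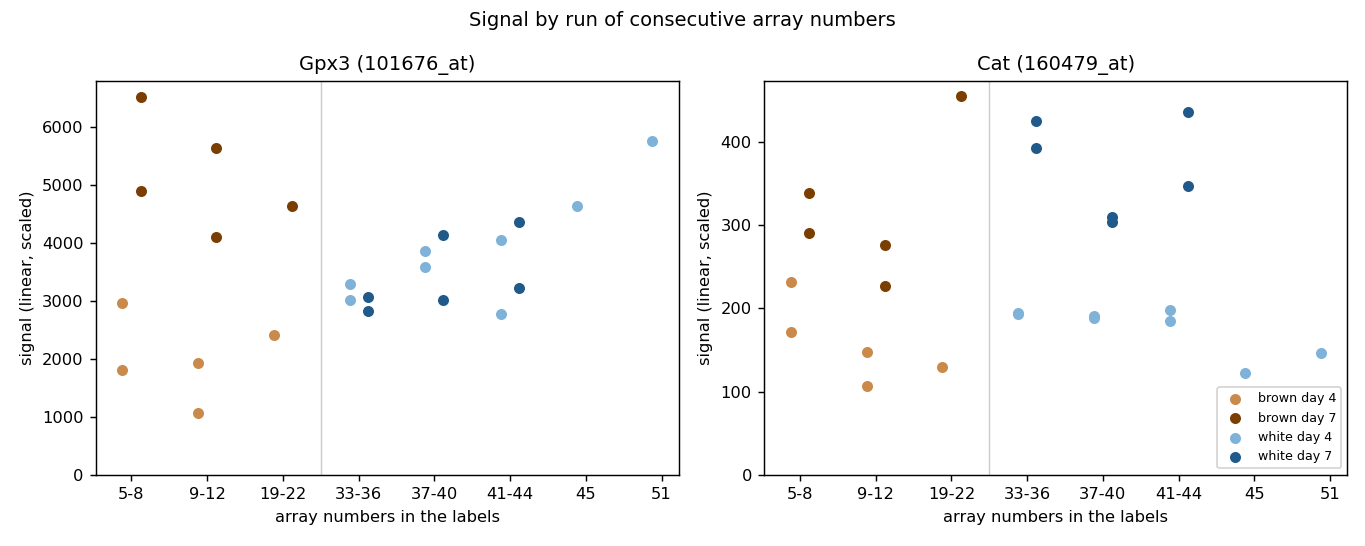
Signal of Gpx3 and of Cat (lead probe set) (y axes, linear signal after scaling, from 0) by run of array numbers in the labels (x axis), brown runs left of the grey line and white runs right of it; each point is an array. In all 3 brown runs day 7 lies above day 4 for both genes, and in the 3 white runs this holds for Cat. For brown Gpx3 and white Cat the whole groups do not overlap, so this follows from that.

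The upstream sequences of Gpx3, which passed over time in brown cells and not in white cells, of Cat, which passed in both, and of Sod1, which passed in neither, are shown to set their promoters side by side. They are the 250 bases before the annotated start, from RefSeq on GRCm38.p6, 5′ to 3′ on the gene's strand. Windows were found for 6 of the 7 genes, all but Sod3. Capitals mark exact matches, on either strand, to 5 motifs: the GC box GGGCGG, the CCAAT box CCAAT, the TATA box TATAAA, the antioxidant response element core TGACNNNGC and the peroxisome proliferator response element in its strict direct repeat form. The Gpx3 window is chr11:54902604-54902853 (plus strand), the Cat window chr2:103485154-103485403 (minus strand) and the Sod1 window chr16:90220512-90220761 (plus strand).
Gpx3: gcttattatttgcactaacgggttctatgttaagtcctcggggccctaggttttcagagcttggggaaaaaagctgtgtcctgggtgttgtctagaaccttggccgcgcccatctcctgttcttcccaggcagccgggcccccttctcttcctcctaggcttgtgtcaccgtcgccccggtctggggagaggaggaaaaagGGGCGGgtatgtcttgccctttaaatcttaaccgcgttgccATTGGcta
Cat: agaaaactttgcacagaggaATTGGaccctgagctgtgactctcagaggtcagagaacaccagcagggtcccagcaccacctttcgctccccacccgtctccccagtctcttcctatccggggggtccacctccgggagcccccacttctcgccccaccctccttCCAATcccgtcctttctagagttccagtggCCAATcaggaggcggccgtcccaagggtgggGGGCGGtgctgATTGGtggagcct
Sod1: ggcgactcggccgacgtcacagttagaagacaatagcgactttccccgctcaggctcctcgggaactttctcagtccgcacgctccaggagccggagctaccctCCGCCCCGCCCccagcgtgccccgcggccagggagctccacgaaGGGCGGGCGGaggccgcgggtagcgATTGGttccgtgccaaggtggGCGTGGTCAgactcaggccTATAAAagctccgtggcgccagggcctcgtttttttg

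The Gpx3 window held 1 GC box and 1 CCAAT box, and the Cat window 1 GC box and 4 CCAAT boxes. The Sod1 window held 4 GC boxes in overlapping pairs, 1 CCAAT box, a TATA box and an antioxidant response element core, the last of these on the minus strand. Of the 6 members with a window, 5 held a GC box and 5 a CCAAT box in at least 1 window. Counted per single window, 32.7% and 33.9% of 32851 windows of the same length did. Gpx1 was the member with neither. The TATA box (12.4% of all windows) and the antioxidant response element core (10.2%) were found in Sod1 alone among the members, and the direct repeat (0.338%) in none. Gpx4 has 4 annotated starts whose windows partly overlap, and it was counted if any of them matched, so its count is not like the share per window. These are matches of letters in short windows and show no binding.

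The other genes of the system were taken from 9 lists, of which 117 genes were tested. Over all 6281 genes tested, 13% changed with time in brown cells, 19.5% in white cells, and 24.5% and 25.4% differed between the cell types at day 4 and day 7. Of the 20 list genes called in brown cells, 13 kept the call without brown day 4 array 9, 13 without brown day 4 array 19 and 15 or more under each other alternative. Of the 27 called in white cells, 15 kept it without white day 4 arrays 45 and 51 and 0 with the Gapdh ratio added to the fit, where the median size was 0.691 times that without it. That ratio nearly coincides with the white day 7 group, so that fit tells ratio and group apart poorly. Between the cell types 26 were called at day 4, of which 23 kept the call with that covariate, and 31 at day 7, of which 5 did and 20 kept it with the block of array runs. For the difference between the changes 0 list genes passed, against 0.191% of all genes.

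Peroxisomes house catalase, and 5 of 23 peroxisomal genes rose with time in brown cells and 5 of 23 in white cells, with 0 falling in either. Over all genes tested 13% changed in brown and 19.5% in white cells, in either direction. The median log2 difference over the list was 0.30 and 0.34, against 0.02 and 0.01 over all genes. Phyh, which starts the breakdown of branched fatty acids, rose by 1.35 ± 0.24 in brown cells, from a mean signal of 157 to 382, and by 0.59 ± 0.20 in white cells. The peroxisomal thiolase gene Acaa1b rose by 1.11 ± 0.26 and 1.18 ± 0.22, and Hsd17b4, an enzyme of peroxisomal fatty acid oxidation, by 0.73 ± 0.16 and 0.93 ± 0.14. Pex11a, which promotes peroxisome division, was lower in brown than in white cells, at -0.89 ± 0.24 at day 4 and -1.06 ± 0.26 at day 7. Ech1 was higher in brown cells by 0.52 ± 0.19 and 1.07 ± 0.20, and Pex14, part of the import machinery, by 0.52 ± 0.12 and 0.53 ± 0.12. Of the list, 2 genes were higher and 1 lower in brown cells at each day.

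Glutathione itself is made by Gclc, Gclm and Gss and recycled by the reductase Gsr. The list of glutathione synthesis and recycling also held the glutathione peroxidases Gpx2, Gpx5 and Gpx7, and Glo1, Hagh and Anpep, among others. Of 13 genes of this list 0 changed with time in brown cells and 1 fell in white cells, Slc3a2 at -0.48 ± 0.12. Gsr was higher in brown than in white cells at day 4 by 0.78 ± 0.22, with mean signals of 251 and 144, and measured 0.60 ± 0.23 at day 7 (adjusted p = 0.0554 by limma). In all 1 gene was higher and 2 were lower in brown cells at day 4, and 2 higher and 1 lower at day 7. Ggt5, an enzyme that splits extracellular glutathione conjugates, was lower in brown cells, at -1.42 ± 0.20 at day 4 and -1.05 ± 0.21 at day 7. The synthetase gene Gss was higher by 0.48 ± 0.15 at day 7.

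Among 16 glutathione transferases, which attach glutathione to other molecules, 2 rose and 1 fell in brown cells and 2 rose and 5 fell in white cells. Gstz1, which acts in tyrosine breakdown, rose by 1.16 ± 0.23 in brown and 1.31 ± 0.19 in white cells, and Gstp1 changed by -0.89 ± 0.19 and -0.57 ± 0.17. Mgst3 was higher in brown cells by 1.43 ± 0.20 at day 4 and 1.68 ± 0.22 at day 7. Gsta3 was lower, at -1.22 ± 0.28 and -2.72 ± 0.30. It stood at or below the floor of 8.21 set in processing on 5 of the 24 arrays, so that its size depends on the floor. The list had 2 higher and 3 lower in brown cells at day 4, and 4 higher and 2 lower at day 7.

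Peroxiredoxins and thioredoxins form a parallel route for peroxide removal. Of 14 genes 1 rose and 3 fell in brown cells, and 1 rose and 2 fell in white cells. The thioredoxin inhibitor Txnip was the gene that rose, by 0.91 ± 0.20 and 0.66 ± 0.17. The cytosolic thioredoxin Txn1 fell by 0.66 ± 0.13 in brown cells, and the mitochondrial Txn2 changed by -0.33 ± 0.11 and -0.36 ± 0.09. Txn2 was higher in brown than in white cells by 0.51 ± 0.10 at day 4 and 0.53 ± 0.11 at day 7, and its reductase Txnrd2 by 0.78 ± 0.20 at day 7. Txn1 was higher in brown cells by 0.37 ± 0.12 at day 4. Prdx2 fell by 0.43 ± 0.13 in white cells and was higher in brown cells by 0.39 ± 0.14 at day 7. The mitochondrial peroxiredoxin Prdx3 measured 0.31 ± 0.21 and 0.39 ± 0.18 over time, and did not pass (adjusted p = 0.365 and 0.116 by limma). Of this list 2 were higher and 0 lower in brown cells at day 4, and 3 higher and 1 lower at day 7.

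NADPH recharges both routes. Of 9 genes 1 rose in brown cells, the malic enzyme gene Me1 at 0.82 ± 0.25, and 1 rose and 1 fell in white cells, Me1 at 1.51 ± 0.22 and the mitochondrial isocitrate dehydrogenase gene Idh2 at -0.52 ± 0.12. Idh2 was higher in brown than in white cells by 0.66 ± 0.13 at day 4 and 1.15 ± 0.14 at day 7. Me1 was lower, at -0.72 ± 0.23 and -1.41 ± 0.24, and so was Nnt, the mitochondrial transhydrogenase, at -1.09 ± 0.19 and -0.90 ± 0.20. Mthfd2 was higher by 0.95 ± 0.18 and 0.63 ± 0.19. The list had 3 higher and 2 lower in brown cells at day 4, and 2 higher and 3 lower at day 7.

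Nfe2l2 encodes Nrf2, the factor that activates many antioxidant genes, and it measured 0.18 ± 0.16 over time in brown cells and 0.34 ± 0.14 in white cells (adjusted p = 0.534 and 0.0864 by limma). Of 17 genes in the list of Nrf2 factors, targets and metal handling 1 rose and 3 fell in brown cells, and 2 rose and 2 fell in white cells. Nqo1, a classic Nrf2 target, fell, at -1.40 ± 0.38 and -1.38 ± 0.33. Ephx1 fell by 0.99 ± 0.28 in brown cells. The metallothionein gene Mt2 rose by 0.66 ± 0.22 and 0.70 ± 0.19. Between the cell types 2 were higher and 3 lower at day 4, and 4 higher and 1 lower at day 7. Mafg, a partner of Nrf2, was lower in brown cells, at -1.10 ± 0.26 and -1.13 ± 0.27, its competitor Bach1 at -0.94 ± 0.30 at day 4, and the transferrin receptor gene Tfrc was higher by 0.86 ± 0.24 at day 7.

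The dismutases need metals, and Ccs, the chaperone that loads copper into Sod1, passed in no comparison (adjusted p from 0.0891 to 0.990, limma). Of 7 genes of copper and manganese supply 1 rose in each cell type, the ferroxidase gene Cp at 1.39 ± 0.36 and 1.53 ± 0.31. At day 4 0 differed between the cell types, and at day 7 2 were higher in brown cells, Cox17 by 0.57 ± 0.19 and Atox1 by 0.54 ± 0.19. Of 9 genes for selenoproteins and their synthesis 1 fell in brown cells, and 2 rose and 1 fell in white cells. Selenoh, a nuclear selenoprotein, fell, at -1.50 ± 0.28 and -1.30 ± 0.24, and Selenot rose by 0.72 ± 0.22 in white cells. Between the cell types 0 differed at day 4 and Pstk was higher in brown cells by 0.48 ± 0.16 at day 7.

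The list of oxidant producing enzymes is broad and also counts Rac1, Rac2 and P4hb, which are not oxidases. Of its 9 genes tested 1 rose in each cell type, the aldehyde oxidase gene Aox1 at 1.30 ± 0.36 and 0.90 ± 0.30. Xanthine dehydrogenase, Xdh, was lower in brown than in white cells, at -1.16 ± 0.11 at day 4, with mean signals of 468 and 1035, and -0.89 ± 0.11 at day 7. Of the list 3 were lower in brown cells at day 4, among them Aox1 at -1.19 ± 0.32, and 2 at day 7, with P4hb at -0.83 ± 0.29.

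**Figure D4:**
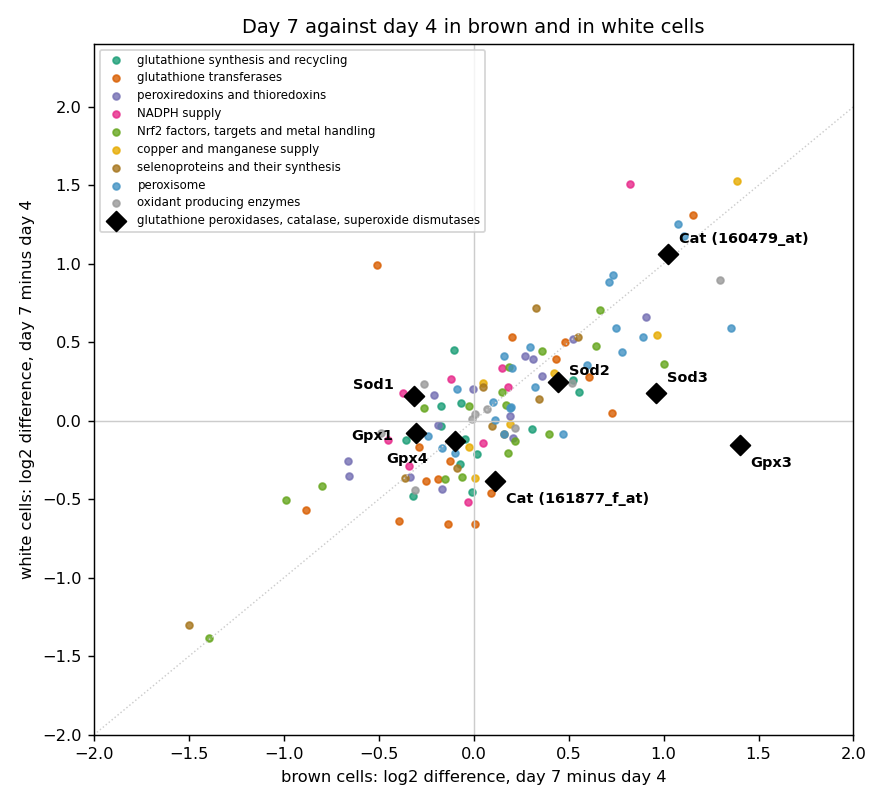
Log2 difference of day 7 minus day 4 in brown cells (x axis) and in white cells (y axis) for the 8 probe sets (diamonds) and the tested genes of the 9 lists (dots); the dotted line marks equal change. Cat (lead probe set) lies on the line at 1.02 and 1.06, and Gpx3 lies off it at 1.40 and -0.16.

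The genes whose log2 signal followed each member most closely over the 24 arrays are given as a description, since the arrays share group differences and scaling. For Cat (lead probe set) they were Chpt1, Ghr and Hsd17b4, with Pearson r of 0.94, 0.93 and 0.93. For Sod2 they were Atp5a1, Suclg1 and Idh3g (r = 0.91, 0.91 and 0.90), and for Sod1 Alad, Psmd4 and Timm13 (0.86, 0.83 and 0.82). Gpx3 was followed by Fxyd1, F11r and Tmem176a (0.84, 0.82 and 0.81), Sod3 by Scd1, Gsn and Crat (0.82, 0.78 and 0.77), and Gpx4 by Mrpl16, Chrac1 and Brk1 (0.80, 0.79 and 0.78). Gpx1 had the lowest values, with Sit1 at 0.68, Rasa4 at 0.65 and Igkv7-33 at 0.63. About the group means, so with the group differences taken out, r was 0.75 to 0.83 for the genes named with Cat, 0.74 to 0.81 for those with Sod2 and 0.71 to 0.87 for those with Gpx3.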

How the data were processed

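The values deposited by the authors are linear MAS5 signal intensities of probe sets for 24 arrays, per the submitters' processing notes (the MAS5 version: not given in the sources used here). Their trimmed means (2%) were 150.094 to 150.117 as deposited. Each array was scaled to a trimmed mean of 150, a floor was set at the 20th percentile over the whole table (8.21), and log2 was taken. Probe sets above the 40th percentile of their array on at least 5 arrays were tested, and 66 control probe sets were left out, which gave 8397 probe sets. Symbols came from the platform annotation, with 10839 of 10855 single symbols matched to the reference gene table. A list gene was read from its probe set with the highest mean signal.

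A single limma 3.58.1 model held the 4 group means (eBayes with an intensity trend, 20 residual degrees of freedom) in R 4.3.3, with 5 contrasts, and was tested on simulated data. Members and lists were chosen with earlier results of these data known. All members were named; of a list, up to 2 genes with the largest called difference per comparison, and always Nfe2l2, Gsr, Prdx3 and Ccs. Another gene that the rule names is not reported here. The 3 most similar genes of each member were ranked by Pearson correlation. The lists were glutathione synthesis and recycling, glutathione transferases, peroxiredoxins and thioredoxins, NADPH supply, Nrf2 factors, targets and metal handling, copper and manganese supply, selenoproteins and their synthesis, peroxisome, and oxidant producing enzymes. Alternatives covered scaling, floor, filter, trend, array weights, the groups in the fit, the Gapdh ratio, runs of array numbers and arrays left out.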

Additional observations from a re-analysis of the deposited data

Results flagged for a closer look

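The difference between the brown and the white change over time passed for Gpx3, at 1.56 on the log2 scale, brown minus white, as tested by the interaction term of the fit. None of the 32 sets of arrays (8 probe sets in 4 groups) held an array far from the others by Dixon's criterion, which chance alone exceeds in about 1 of 20 such sets.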

How the results depend on the processing

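Over 36 alternatives (35 for the difference between the changes) the count of members called over time in brown cells stayed at 3 to 4 and that between the cell types at day 4 at 2 to 4, and Gpx3, Cat (lead probe set) and Sod3 kept their brown calls in all of them. With the Gapdh covariate the count was 0 over time in white cells, 0 between the cell types at day 7 and 0 for the difference between the changes. These comparisons all hold the white day 7 group, with which the Gapdh ratio nearly coincides. In white cells over time it was 2 with quantile normalization, with the stricter filter and with runs of array numbers as a random block, by adding Cat (_f_at probe set). Leaving out single arrays gave 1 to 2 in white cells over time, 2 to 3 between the cell types at day 7 and 1 for the difference between the changes. The causes were not tested.

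Values that turned their sign were never past the threshold. With the Gapdh covariate these were 0.0792 for Gpx1, 0.35 for Gpx3, 0.23 for Gpx4 and -0.00972 for Sod3 over time in white cells, -0.19 for Gpx4 and 0.0417 for Cat (lead probe set) between the cell types at day 7, and -0.32 for Gpx4 and 0.20 for Cat (lead probe set) for the difference between the changes. Sod1 between the cell types at day 7 was -0.0515 with quantile normalization. Gpx4 was 0.014 over time in white cells without arrays 45 and 51. For the difference between the changes Gpx4 was -0.11 with array weights, -0.00542 with the block and -0.11 without arrays 45 and 51, and Cat (lead probe set) 0.0907 without those arrays. Leaving out single arrays gave -0.29 to 0.0177 for Gpx4 over time in brown cells, -0.15 to 0.0163 for Gpx1 over time in white cells and -0.00359 to 0.12 for Sod1 between the cell types at day 7. For the difference between the changes it gave -0.16 to 0.15 for Gpx4 and -0.18 to 0.11 for Cat (lead probe set).

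No paired analysis was possible because no array number occurs in more than 1 group, so that numbers match no array of 1 group to an array of another. Runs of numbers served as a random block instead (consensus correlation 0.201), and that fit ended the calls of Sod2 at day 4 and of Gpx3 at day 7 between the cell types. The number of probe sets called for the difference between the changes, 18, ran from 5 to 45 over the alternatives.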
